A study of Caenorhabditis elegans with 2 samples.

Results

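The genes described here are the 8 subunit genes of the cytosolic chaperonin CCT (cct-1 to cct-8) and the genes of the cytosolic chaperones Hsp70 (hsp-1) and Hsp90 (hsp-90, also called daf-21), 10 of 19985 protein-coding genes of Caenorhabditis elegans. Their chromatin was examined for peaks of UNC-3 in ChIP-seq of late embryos. The genes were chosen by measured values of this experiment, because 4 of them had peaks on a list selected for reproducibility between the replicates. The counts below are therefore a description and were not tested. Both libraries are biological replicates, 1 and 2, of 1 group: hermaphrodite embryos of strain OP578 (unc-119(tm4063) III; wgIs578), in which a stable transgene makes UNC-3 with GFP-FLAG at its C-terminus. Embryos were collected 4 h after synchronization by egg bleaching, whole organisms were used, chromatin was sonicated, and an antibody against GFP was used for the precipitation. All of this is shared by both replicates. An untagged strain, another developmental stage and other tagged factors were not analysed here, so signal that depends on UNC-3 cannot be told apart from signal that any precipitation would give at these loci.

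CCT, also called TRiC, is a double ring of related subunits that encloses newly made proteins while they fold, and its best known clients are actin and tubulin. Hsp70 binds unfolded stretches of a protein in cycles driven by ATP, with J-domain proteins and nucleotide exchange factors as helpers, and Hsp90 acts later, on nearly folded clients such as kinases and hormone receptors. These genes are used in most cells and are no markers of a cell type. UNC-3 is the worm member of the COE (Collier/Olf/EBF) transcription factors, known for its part in the identity of cholinergic motor neurons. In whole embryos all cell types are pooled, so a site bound in fewer cells and a site bound more weakly in each cell cannot be told apart.

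The deposited lists give the summit of each peak and a signal, the strength assigned by the authors' peak caller on a scale that is not given in the sources used here. A list of 754 peaks was deposited as selected by the irreproducible discovery rate (IDR), a measure of agreement between replicates. These were exactly the 754 strongest of the 15515 peaks in the pooled list, which was called on both libraries together. A place on the IDR list is thus not by itself evidence of agreement at a single peak. Of these peaks, 753 had an overlapping peak in both replicates, and that of rank 18 had none in replicate 1. Some IDR peaks overlapped the same replicate peak, so these 753 are not all separate matches. The replicate 1 list held 20517 and the replicate 2 list 21474 peaks, background included. A gene was counted when a summit lay in its window, from 2000 bp upstream of the gene start to the gene end (Ensembl release 115, build ce11, WBcel235). Signals and ranks were read only within a list, where rank 1 is the strongest peak.

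The IDR list held 4 summits in the 10 windows, 1 each at hsp-90, hsp-1, cct-7 and cct-8. The sequence around each summit is shown because the results on position and motifs below turn on these 4 sites. Each line runs 5′ to 3′ on the strand of the chaperone gene, over 50 bp on either side of the summit, and the capital marks the summit base. The regions in ce11 are V:14685682-14685782 on the plus strand for hsp-90, IV:17278568-17278668 on the plus strand for hsp-1, V:1871957-1872057 on the plus strand for cct-7 and IV:1094335-1094435 on the minus strand for cct-8.
hsp-90: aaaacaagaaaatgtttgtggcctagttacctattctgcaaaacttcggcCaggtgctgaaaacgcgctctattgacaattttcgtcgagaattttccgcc
hsp-1: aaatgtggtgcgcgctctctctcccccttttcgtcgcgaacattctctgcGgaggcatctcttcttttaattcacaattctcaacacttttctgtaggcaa
cct-7: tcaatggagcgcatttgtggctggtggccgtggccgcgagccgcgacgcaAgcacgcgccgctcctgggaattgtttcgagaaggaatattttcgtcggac
cct-8: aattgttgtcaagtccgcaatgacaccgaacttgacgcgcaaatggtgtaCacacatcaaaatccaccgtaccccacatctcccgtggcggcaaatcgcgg

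The Hsp90 gene carried the strongest of these peaks. hsp-90 lies on chromosome V from 14684918 to 14688545, on the plus strand. Its IDR peak, from 14685492 to 14685971, had its summit at 14685732 with a pooled signal of 108.7, rank 207 of 754. The overlapping replicate peaks had signals of 50.4 (rank 223) and 60.03 (rank 211), so both libraries ranked the site at a similar height, and their summits were 56 bp apart. The summit was not upstream of the annotated gene start but 814 bp downstream of it, in the first intron of the longer transcript (14685044 to 14686159, 1116 bp). A shorter hsp-90 transcript starts where that intron ends, 1242 bp downstream of the gene start, and from this second start the summit was 428 bp upstream. A gene on the opposite strand, C47E8.4 (14683698 to 14685485), overlaps the hsp-90 start, and its own start was 247 bp from the summit. The summit therefore lay between the starts of C47E8.4 and of the shorter hsp-90 transcript, and upstream of both.

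A weaker pooled peak in the same intron, with a signal of 42.5 (rank 1645), had its summit 225 bp upstream of the second start. Replicate 2 had a separate summit there, with a signal of 37.9 (rank 595), 189 bp upstream of that start. The replicate 1 list had no separate summit there, and its strongest overlapping peak was the one already described. At the annotated gene start hsp-90 had only a weak pooled summit, 168 bp upstream, with a signal of 28.4 (rank 5432). It lay in a coding exon of C47E8.4. In replicate 1 the overlapping peak had a signal of 18.6 (rank 3704), and replicate 2 had no peak there. Replicate 1 had another summit 436 bp upstream (17.6, rank 4544), also in a coding exon of C47E8.4. Within the coding exons of hsp-90 each library had 1 weak summit, 2072 bp (10.8, rank 20430) and 2210 bp (11.3, rank 17427) downstream of the gene start.

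At hsp-1 (chromosome IV, 17278959 to 17281330, plus strand) the IDR peak ran from 17278378 to 17278857 and lay between genes. Its summit, at 17278618, was 341 bp upstream of the gene start, with a pooled signal of 90.5 (rank 322). The replicate signals were 39.1 (rank 420) and 55.5 (rank 246), with summits 25 bp apart. Of the 4 IDR summits this was the only one whose nearest protein-coding start was that of the chaperone gene itself. The coding sequence of hsp-1 held 2 weaker pooled summits, of signal 29.5 at 411 bp and 27.5 at 1391 bp downstream of the gene start. The first had a peak in both replicates, of signal 10.8 (rank 20304) and 18.5 (rank 4004), and the second only in replicate 1, of signal 23.5 (rank 1567). A replicate 1 summit of 12.597 (rank 13788) lay 1553 bp downstream.

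The CCT subunit genes with an IDR peak were cct-7 and cct-8, and in both the summit lay in the space shared with a gene on the opposite strand. The peak intervals reached beyond that space, into T10B5.4 at cct-7 and into Y55F3AR.2 at cct-8. cct-7 (chromosome V, 1872246 to 1875505, plus strand) is separated from T10B5.4 by 438 bp. The peak from 1871767 to 1872246 had its summit at 1872007, 239 bp upstream of cct-7 and 200 bp upstream of T10B5.4. Its pooled signal was 87.3 (rank 349), and the replicate signals were 46.1 (rank 289) and 38.7 (rank 563), with summits 2 bp apart. Across both libraries this was thus one sharply placed site, near the middle of the shared space. The other cct-7 summits were weaker and each in a single library. They lay 1008 bp downstream (11.7, rank 16934) and 1176 bp upstream (11.2, rank 18490) in replicate 1, and 2406 bp (20.8, rank 2747) and 2646 bp (13.8, rank 10210) downstream in replicate 2.

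cct-8 (chromosome IV, 1087108 to 1093920, minus strand) is separated from Y55F3AR.2 by 620 bp. The peak from 1094145 to 1094624 had its summit at 1094385, 465 bp upstream of cct-8 and 156 bp upstream of Y55F3AR.2, and a pooled signal of 85.9 (rank 361). Replicate 1 had a signal of 50.2 (rank 229) and replicate 2 one of 33.4 (rank 799), with summits 1 bp apart. In position the replicates were as close as at cct-7, but in replicate 2 the site was outside the strongest 754 of 21474 peaks. A further pooled summit, of signal 27.9, lay in an intron of cct-8, 2620 bp downstream of the gene start, with a peak in replicate 1 only (21.1, rank 2327). Replicate 1 had further intron summits at 2495 bp (17.4, rank 4831), 840 bp (14.1, rank 9811) and 5891 bp (10.9, rank 19754) downstream, and replicate 2 had one at 539 bp (11.5, rank 16494).

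Measured from the nearest start of the gene's own transcripts, the 4 IDR summits thus lay 239 to 465 bp upstream. Against the 754 IDR peaks, whose signals ran from 60.2 to 996.8 with a median of 84.6 and quartiles of 69.5 and 113.7, all 4 were of middling strength. Of the IDR peaks, 72.5% were weaker than that of hsp-90, 57.3% than that of hsp-1, 53.7% than that of cct-7 and 52.1% than that of cct-8. The replicate summits at cct-7 and cct-8 lay closer together than the lower quartile of 17 bp over 753 IDR peaks with a peak in both replicates, whose median was 38 bp and upper quartile 72 bp. Within 100 bp of the summit the GC content was 38.8% at hsp-90, 36.8% at hsp-1, 48.8% at cct-7 and 42.3% at cct-8, beside a median of 44.8% over the IDR peaks. None of the 4 summits lay within 200 bp of a tRNA, snoRNA or snRNA gene.

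**Figure D1:**
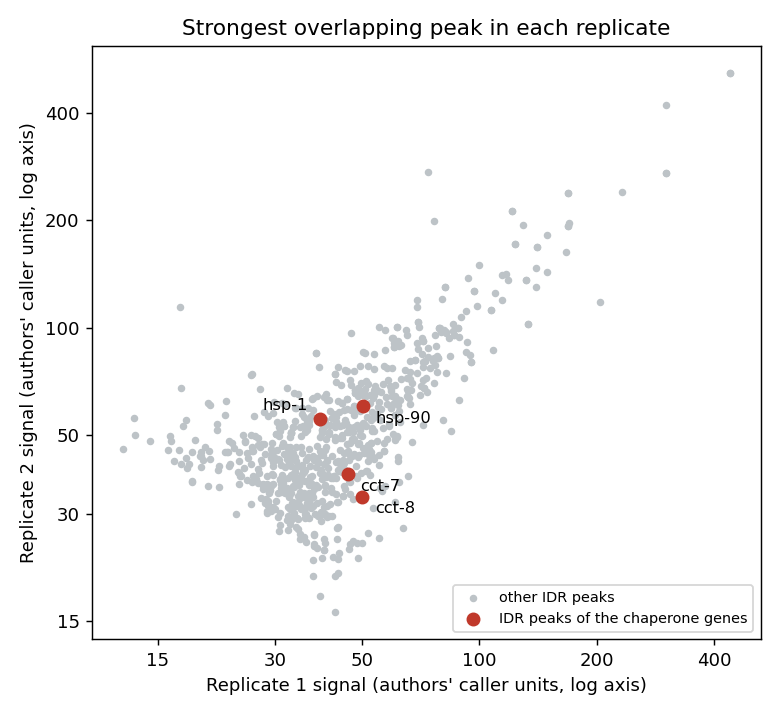
Signal of the strongest overlapping peak in replicate 1 (horizontal, log axis, authors' caller units) and replicate 2 (vertical, log axis) for each IDR peak, one point per peak. IDR peaks that overlap the same replicate peak share its value. The 4 red points are the peaks of the chaperone genes, which sit inside the cloud of other IDR peaks: hsp-90 at 50.4 and 60.03, hsp-1 at 39.1 and 55.5, cct-7 at 46.1 and 38.7, and cct-8 at 50.2 and 33.4.

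The remaining 6 CCT genes had no IDR peak, and their pooled signals ranged from 47.9 to no pooled summit at all. cct-5 (chromosome III, 4499188 to 4508114, minus strand) had the highest. Its summit 270 bp upstream of the gene start had a pooled signal of 47.9 (rank 1256), where the weakest IDR peak, at rank 754, had 60.2. Both replicates had a peak there, with signals of 19.6 (rank 3010) and 24.1 (rank 1742) and summits 265 and 270 bp upstream. cct-5 also held 4 pooled summits in its introns, the stronger ones 5657 bp (signal 39.8) and 5416 bp (34.1) downstream of the gene start. In the replicates the intron site had signals of 24.9 (rank 1295, at 5657 bp) and 28.3 (rank 1153, at 5347 bp), so in each library it ranked above the site at the gene start, although the summits were apart. The other intron summits of the pooled list, 2055 bp (26.6) and 3848 bp (21.5) downstream, had replicate 1 summits at 2004 bp (21.3, rank 2244) and 3770 bp (12.203, rank 15069). Near the first of them replicate 2 had a summit at 2167 bp (10.4, rank 20932). A sixth summit, of signal 20.2, lay 1341 bp upstream, in an intron of the neighbouring gene, with a replicate 1 summit of 15.4 (rank 7300) 1578 bp upstream. Replicate 1 had further summits 474 bp upstream (14.6, rank 8862) and 328 bp downstream (10.8, rank 20514). Replicate 2 had further ones at 971 bp (13.8, rank 10118), 3240 bp (12.58, rank 13214), 7603 bp (13.6, rank 10696) and 8268 bp (11.3, rank 17171) downstream.

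cct-6 (chromosome III, 5853530 to 5855687, minus strand) had 1 pooled summit, 236 bp upstream, with a signal of 33.6 (rank 3145). The replicate peaks had signals of 14.2 and 16.52, and their summits lay on either side of it, 151 bp (rank 9498) and 365 bp (rank 5808) upstream. Replicate 2 also had a summit near the gene end, 2060 bp downstream of the start (12.56, rank 13289). cct-4 (chromosome II, 8283667 to 8285711, plus strand) had pooled summits 431 bp (signal 30.4, rank 4389) and 98 bp upstream (23.8, rank 9648). Replicate 1 had a summit near each, 429 bp (12.7, rank 13648) and 101 bp upstream (12.18, rank 15132), while replicate 2 had a single one between them, 252 bp upstream (17.1, rank 5160). The strongest replicate 1 summit at cct-4 was not upstream but in a coding exon, 626 bp downstream of the start (17.99, rank 4234), with none near it in the pooled or replicate 2 list. At both genes the libraries had a peak upstream of the start but did not place it at the same base.

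cct-1 (chromosome II, 8185443 to 8187601, plus strand) differed widely between the replicates. The pooled summit 226 bp upstream had a signal of 30.2 (rank 4492). Replicate 1 had a peak of signal 30.8 there, rank 742, which is among the strongest 754 peaks of that list, with its summit 221 bp upstream. Upstream of the gene, the replicate 2 list had only a peak of signal 10.4, rank 20976 of 21474. Its summit was 466 bp upstream, in a coding exon of the neighbouring gene, so the upstream site rested on replicate 1. A second replicate 2 summit, of signal 10.9 (rank 18831), lay in a coding exon of cct-1 itself, 747 bp downstream of the start.

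cct-3 (chromosome II, 2233540 to 2243539, plus strand), 10000 bp long, had no summit upstream of its start in any list. Its 3 pooled summits lay in introns, 2687 bp (signal 26.6), 2974 bp (24.8) and 6252 bp (25.1) downstream of the start. Each of these overlapped peaks of 1 replicate only. Replicate 1 had summits 5294 bp (11.7, rank 16643), 5512 bp (10.9, rank 20101), 6261 bp (19.04, rank 3409) and 7209 bp (12.4, rank 14331) downstream of the start. Replicate 2 had 5, at 2795 bp (16.06, rank 6374), 4101 bp (11.4, rank 17073), 4783 bp (16.15, rank 6266), 7484 bp (17.4, rank 4876) and 8479 bp (14.9, rank 8048). cct-2 (chromosome II, 8927741 to 8929815, plus strand) had no summit in its window in any of the 4 lists.

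**Figure D2:**
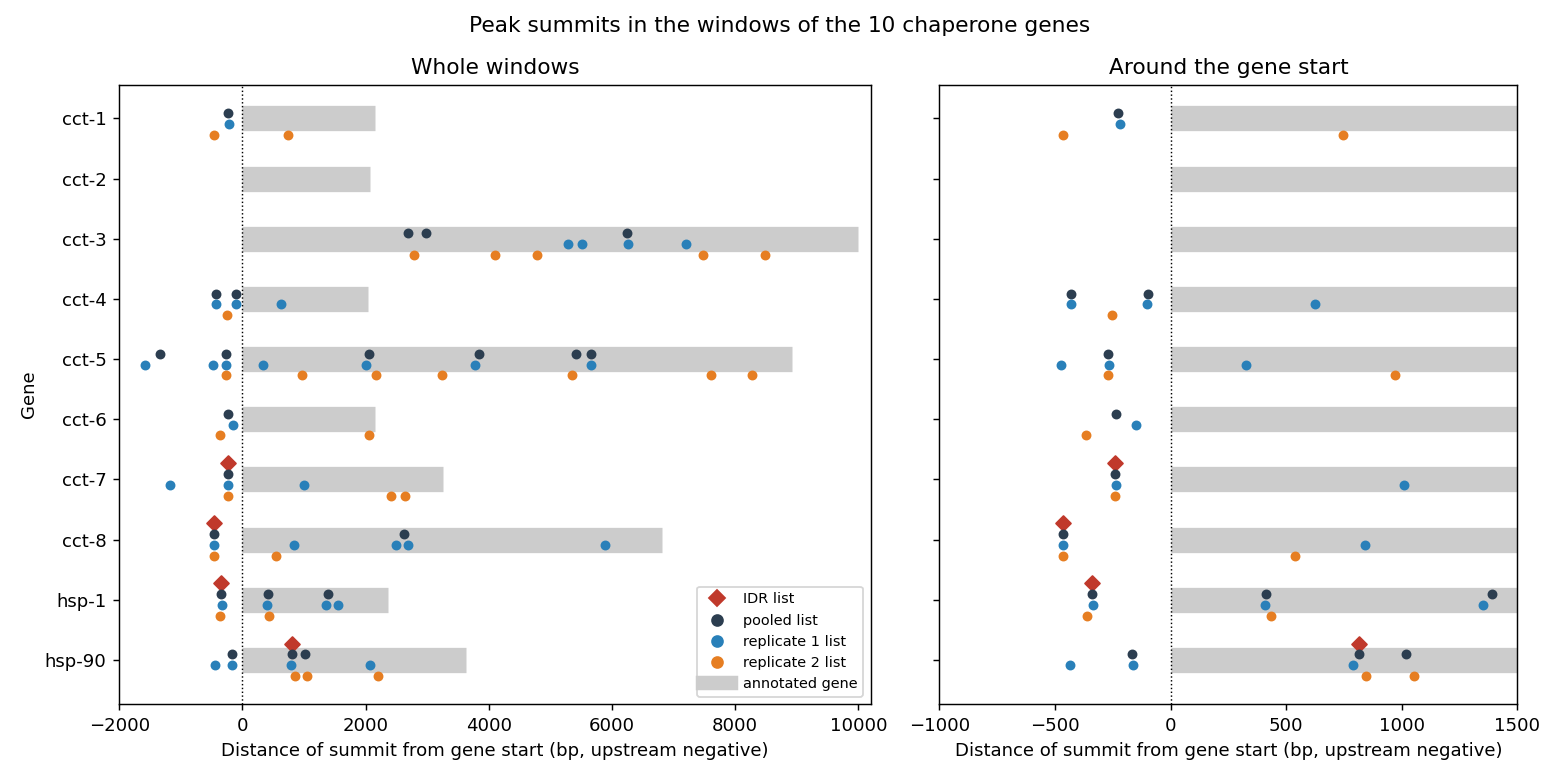
Summits in the window of each chaperone gene by distance from the gene start in bp (horizontal, upstream negative), over the whole windows on the left and near the gene start on the right. Each row is a gene, grey bars are annotated genes, diamonds are IDR summits and circles are summits of the pooled, replicate 1 and replicate 2 lists. Summits of cct-7, cct-8 and hsp-1 stack at the same place upstream in all lists, that of hsp-90 lies 814 bp inside the gene, and the row of cct-2 is empty.

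Counted over all 10 genes, 4 had an IDR summit in the window, beside 4.34% of protein-coding genes. This is the count that chose the genes, and nothing is read from it. A pooled summit was present at 9 (45.7% of protein-coding genes), and a summit of the replicate 1 list at 9 (55.8%) and of the replicate 2 list at 9 (55.6%), cct-2 being the exception each time. Windows differ in length, from 4045 bp at cct-4 to 12000 bp at cct-3, beside a median of 4026 bp, and longer windows hold more summits.

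A window of equal length for all genes, from 500 bp upstream to 100 bp downstream of the gene start, held an IDR summit at cct-7, cct-8 and hsp-1 (1.99% of protein-coding genes had one). It held a pooled summit at 8 of the 10 genes, all but cct-2 and cct-3, beside 15.7%. In replicate 1 the number was 8 (17.7%) and in replicate 2 it was 7 (18.7%), without hsp-90. Since the IDR peaks belong to the pooled list, the genes without one were also counted alone: 4 of 6 (cct-1, cct-4, cct-5 and cct-6) had a pooled summit at the gene start, beside 13.9% of the 19118 protein-coding genes without an IDR summit in their windows. The pooled peaks come from the same libraries as the choice of genes, and this count was not tested.

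By the strongest pooled summit in the window, cct-5 was above 84.6%, cct-6 above 68.4%, cct-4 above 59.2%, cct-1 above 58.6% and cct-3 above 43.5% of the 9134 genes with such a summit. The genes with IDR peaks were above 95.1% (cct-8) to 97.1% (hsp-90). Their high place was fixed in advance, because the IDR list was exactly the 754 strongest pooled peaks, and nothing is read from it. The median over those 9134 genes was 28.0. Apart from cct-5, the CCT genes without an IDR peak thus had a strongest summit between the quartiles of all such genes (23.5 and 36.9), or had none.

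**Figure D3:**
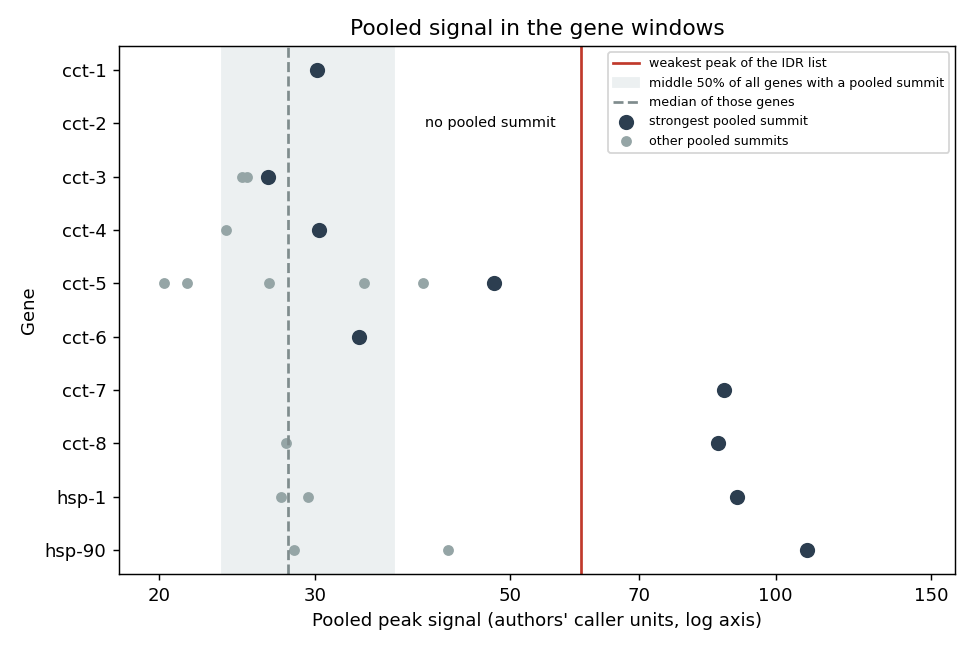
Signal of every pooled summit in the window of each chaperone gene (horizontal, log axis, authors' caller units), with the strongest summit of a gene as a large dark point and the others in grey. The red line is the weakest IDR peak (60.2), and the band and dashed line are the quartiles and the median (28.0) of the strongest summit over 9134 protein-coding genes. The 4 genes with IDR peaks lie between 85.9 and 108.7, cct-5 at 47.9, the others at 33.6 or below, and cct-2 has no point. Any gene with an IDR peak must lie at or to the right of the red line.

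Genes that overlap a gene start were left out in finding its nearest upstream protein-coding neighbour. All 8 CCT genes had this neighbour on the opposite strand, beside 45.4% of protein-coding genes, with 330 bp (cct-6) to 1189 bp (cct-2) between the genes. At hsp-1 it was on the same strand, at 1210 bp. At hsp-90 it was also on the same strand, at 1171 bp, but this passes over C47E8.4, the gene on the opposite strand that overlaps the hsp-90 start. This arrangement does not depend on the ChIP signal, but it was looked at after the peaks had been seen. Because of it, peaks between a CCT gene and its neighbour belong to the windows of both genes. The cct-7 and cct-8 peaks, like the hsp-90 peak, were counted for 2 genes each. The cct-2 and cct-3 spaces, the ones without a pooled summit at the gene start, were the longest of the 8, at 1189 and 1069 bp.

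The COE family binds a palindrome, TCCCNNGGGA, where N is any base. It was searched on both strands within 100 bp of each summit. None of the 4 IDR summits of the chaperone genes had it, beside 4.91% of all IDR summits. For sites drawn at random, 0 of 4 would allow a share of up to 60.2% (exact Clopper-Pearson upper limit of a 95% interval, which covers counting error only). These 4 were not drawn at random, because the genes were chosen by their IDR peaks. With 1 mismatch allowed the count was again 0 of 4, beside 11.5%. With so few summits, a share like that of all IDR summits could not be told from its absence. Over all 22 pooled summits in the windows, the palindrome was at 0, beside 0.812% of pooled summits, and a version with 1 mismatch at 1, beside 4.64%. That one was the summit in the coding sequence of hsp-1, 1391 bp downstream of the gene start.

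Heat shock factor, the activator of chaperone genes under stress, binds alternating GAA units, and the letters searched were TTCNNGAANNTTC and the reverse complement, 3 units with 2 free bases between them. In promoters from 250 bp before to 50 bp after the gene start, this element was found at hsp-1 and hsp-90 and at none of the 8 CCT genes, 2 of 10 beside 1.97% of protein-coding promoters. The 150 bp before the gene start of both genes are shown for the place of the element, in capitals, on the plus strand of ce11 (V:14684768-14684917 for hsp-90 and IV:17278809-17278958 for hsp-1).
hsp-90: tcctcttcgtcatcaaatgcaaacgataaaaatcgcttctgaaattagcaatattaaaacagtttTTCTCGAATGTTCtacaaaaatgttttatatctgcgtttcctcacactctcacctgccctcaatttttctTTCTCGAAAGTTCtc
hsp-1: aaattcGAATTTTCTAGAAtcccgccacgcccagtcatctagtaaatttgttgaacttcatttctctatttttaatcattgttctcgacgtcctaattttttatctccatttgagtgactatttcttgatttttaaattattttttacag

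hsp-90 had 2 such elements, which began 85 bp and 15 bp before the gene start, and hsp-1 had 1, which began 144 bp before it. None of the 4 IDR summits had the element within 100 bp, beside 0.928% of IDR summits. The hsp-1 element lay inside the IDR peak, 197 to 209 bp after its summit, so that 1 of the 4 peaks held the element somewhere in its interval, beside 2.12% of IDR peaks, a count added after the data were seen. At hsp-90 the elements stood at the annotated gene start, while the IDR summit was 814 bp further on. The weak pooled summit 168 bp upstream of hsp-90 had an element within 100 bp, 1 of the 22 pooled summits in the windows, beside 1.56% of pooled summits. A shorter element of 2 units, TTCNNGAA or GAANNTTC, was in the promoters of 9 of the 10 genes, all but cct-2, beside 32.5% of promoters. Within 100 bp of the IDR summits this shorter element was found at 4 of 4 chaperone sites, beside 16.4% of IDR summits, a count made after the sequences had been seen. At hsp-1 it was GAACATTC, 13 to 6 bp before the summit. At hsp-90 it was GAATTTTC, 39 to 46 bp after the summit, and the same 8 letters stood 80 to 87 bp after the summit at both cct-7 and cct-8. cct-7 had a further one, TTCGAGAA, 25 to 32 bp after the summit. These matches of letters describe the sequence, and binding by heat shock factor was not measured here.

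The partners and clients of these chaperones were counted in the same windows, from lists that were made with earlier results known. Of the 6 prefoldin genes, whose product hands clients to CCT, 1 had an IDR summit: pfd-5 (signal 63.6, 155 bp upstream of its start). Among 9 actin and tubulin genes there were 3, the alpha-tubulin genes tba-1 (97.8) and tba-2 (90.2) and the beta-tubulin gene tbb-2 (61.9). Of 14 co-chaperones of Hsp70 and Hsp90, 3 had one. These were bag-1, a nucleotide exchange factor of Hsp70 (118.1), the J-domain gene dnj-12 (72.9) and ahsa-1, an activator of the Hsp90 ATPase (60.2), the last named after its value was seen.

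Among 11 other Hsp70, Hsp90, Hsp60 and Hsp110 genes there were 2, hsp-60 of the mitochondria (130.8) and enpl-1, the Hsp90 of the endoplasmic reticulum (63.8). Of 32 proteasome genes 2 had an IDR summit, the core subunit gene pbs-5 (199.5) and the regulatory particle gene rpn-7 (94.0). For pbs-5 the summit was 1149 bp upstream, in an intron of another gene, and for hsp-60, rpn-7, dnj-12, tba-1 and ahsa-1 too another gene's start was nearer to the strongest summit. No IDR summit was found at the 14 small heat shock protein genes or at the 4 genes of heat shock factor and its regulators. In the prefoldin, small heat shock protein, heat shock factor and proteasome lists, 1 gene more or less would move the share past the 4.34% of all protein-coding genes.

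Pooled summits at the gene start, beside 15.7% of all protein-coding genes, gave larger counts. They were present at 6 of 8 CCT genes, 11 of 14 co-chaperones, 8 of 11 other Hsp genes, 4 of 6 prefoldin genes, 16 of 32 proteasome genes and 4 of 9 actin and tubulin genes. The small heat shock protein genes had 0 of 14 in the pooled list, and the heat shock factor list 0 of 4. In the windows from 2000 bp upstream to the gene end, these lists had a pooled summit at 6 of 14 and 3 of 4 genes, beside 45.7%. With lists this short, counts of 0 at the gene start cannot be told from the 15.7%. The CCT count includes cct-7 and cct-8, whose IDR peaks chose the genes. Single libraries gave other counts for some lists, beside 17.7% of all protein-coding genes in replicate 1 and 18.7% in replicate 2. Prefoldin had 2 of 6 in replicate 1 and 5 of 6 in replicate 2, and the proteasome 10 and 18 of 32. Small heat shock protein genes had 3 of 14 in replicate 1 and 1 of 14 in replicate 2, and the heat shock factor list 0 and 2 of 4. The CCT genes had 6 of 8 in each replicate, but in replicate 2 cct-1 counted only through a peak of rank 20976 of 21474. The summit of that peak was 466 bp upstream, in the neighbouring gene, and that of replicate 1 was 221 bp upstream. No test between the lists was made, and how much RNA these genes make in the embryos was not measured here.

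**Figure D4:**
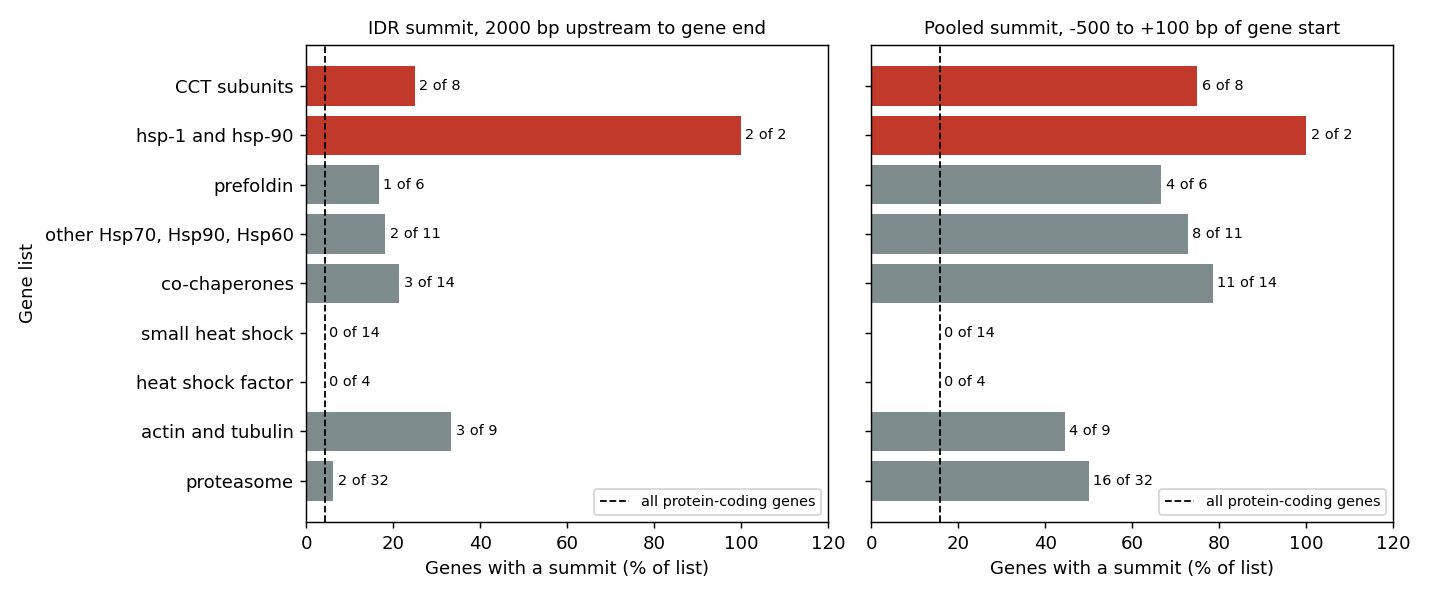
Share of the genes in each list (horizontal, in % of the list) with an IDR summit from 2000 bp upstream to the gene end, on the left, and with a pooled summit from 500 bp upstream to 100 bp downstream of the gene start, on the right. Red bars are the chaperone genes that were chosen by their IDR peaks, grey bars the other lists, the numbers are counts of genes, and the dashed line is the share over all protein-coding genes (4.34% and 15.7%). On the right all lists but those of the small heat shock proteins and heat shock factor, at 0 of 14 and 0 of 4, lie above the line.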

How the data were processed

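UNC-3 ChIP-seq of whole late embryos was analysed from the deposited narrowPeak lists in ce11 of 2 biological replicates, of both pooled and of the IDR selection. Notes deposited beside the lists say that the authors called each list with a control alignment, and its peaks carry a signal value, a score on an unstated scale. The aligner and caller, the threshold on IDR and the depth of reads stay unknown (not given in the sources used here), so no interval from depth is given. The ce10 lists were not used here.

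Gene windows, ranks within each list, overlaps of at least 1 bp, motif matches and counts were computed from Ensembl release 115 genes and the WBcel235 sequence. The tools were Python 3.11.15, pandas 2.3.3, numpy 2.4.6 and scipy 1.17.1. Finding summits in gene windows and the exact search for the palindrome and the 3-unit element were tested on simulated data. The other steps were not. Where several replicate peaks overlapped, the strongest was taken. The members and lists were chosen with earlier results of these data known, and no test was made. All 10 chaperone genes are named. Of the other lists, genes with an IDR peak are named by signal, at most 10 by plan. Beyond these, ahsa-1 was added after its value was seen. Neighbours are named where a chaperone gene's IDR peak lies in their window. Of 14 small heat shock protein names 12 matched, to 14 genes. The alternatives were other windows, thresholds, lists and motif settings.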

Additional observations from a re-analysis of the deposited data

How the results depend on the processing

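Of 33 alternative values for 6 results, 26 stayed within the set range (a ratio of 1.5) and 7 moved. Some of the 26 could not move. Without a palindrome within 100 bp of a summit there is none within 50 bp, and ranks 207 to 361 all fall in the stronger 377 IDR peaks. The tally is therefore no measure of robustness. With each IDR peak assigned only to the nearest start, 1 chaperone gene (hsp-1) kept an IDR peak. Among pooled peaks of rank 1 to 1508, 5 genes had one (cct-5, cct-7, cct-8, hsp-1 and hsp-90). The share of protein-coding genes with an IDR summit was 2.11% when summits had to lie from 500 bp before to 100 bp after a start and 2.36% in the stronger 377 IDR peaks, where all 4 chaperone genes stayed. The heat shock element was in 9 promoters with 2 units, and with 3 units it was within 100 bp of 0 of the 4 IDR summits and inside 1 of the 4 IDR peaks (hsp-1), a search added after seeing the data. These last searches cover other regions than the promoters. With 1 replicate left out and the 754 strongest peaks of the other used, the chaperone genes with a peak numbered 3 (replicate 2 alone, without cct-8) to 5 (replicate 1 alone, with cct-1 added), their summits 4 to 5, and the share of genes 4.28 to 4.30%.

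Only peak lists were analysed: depth is unknown, a missing summit does not show missing binding, and 2 libraries of 1 group allow no comparison of conditions. No paired analysis was possible because there is 1 group.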
